A study of Mus musculus with 2 samples.

Results

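Among lung alveolar type 2 cells sorted from mice, a small set of droplets held transcripts of 2 cell types at once: the surfactant transcripts of alveolar type 2 (AT2) cells and the transcripts of lung fibroblasts and contractile cells. A droplet is the unit that a cell barcode stands for in this assay, and it can hold more than 1 cell. The members were chosen by their own measured values: Sftpc, the gene of surfactant protein C, made up at least 15% of the UMIs (unique molecular identifiers, the molecule tags by which a captured transcript is counted once), and at least 3 of 6 fibroblast markers (Inmt, Mfap4, Mgp, Rarres2, Tagln and Col1a2) had at least 1 UMI. Of 19152 cells with at least 2000 UMIs, at least 500 genes and at most 20% mitochondrial UMIs, 16715 passed the Sftpc minimum and 202 of these were members. The tumor-bearing library held 148 of the members and the control library 54. The other 6571 and 9942 cells above the Sftpc minimum are called other AT2 cells here.

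The tumor-bearing library came from a wild-type C57BL/6 mouse on day 14 after 1000000 LLC cells (Lewis lung carcinoma, a transplantable mouse lung cancer line) labelled with luciferase were placed under the skin of the back, and the control library from an untreated wild-type C57BL/6 mouse. Both lungs were dissociated with collagenases and DNase, and a flow sort kept CD45- SftpC+ cells, at a purity the labels give as above 95%. The sort thus used no fibroblast marker. Each group had 1 library, so no difference below has a replicate check. Exact 95% intervals cover counting error only.

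AT2 cells make and store surfactant, the lipid and protein film that keeps alveoli open, and they renew the alveolar lining. They sit on a thin wall shared with alveolar fibroblasts, which lay down collagen and elastic fibres and send growth signals to AT2 cells. Contractile cells, namely smooth muscle cells and myofibroblasts, carry actin and myosin of the muscle type and lie around airways, vessels and alveolar duct openings. Pericytes wrap the capillaries, whose walls are endothelial cells.

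The members had the AT2 transcripts that the label asks for, beyond Sftpc itself. All 19 genes of the AT2 list were measured in both libraries and none passed 2-fold against the other AT2 cells. Sftpa1, a surfactant protein gene, stood at 27677 CPM (counts scaled to a total of 1000000) in members and 32404 CPM in other AT2 cells of the tumor-bearing library, and at 24243 and 31142 CPM in the control library. Slc34a2, the sodium-phosphate cotransporter gene of AT2 cells, stood at 1983 against 2039 CPM and at 2206 against 2208 CPM. The median log2 ratio of the list was -0.14 (tumor-bearing) and -0.22 (control), so AT2 levels in members lay slightly under those of their neighbours in both. Median Sftpc shares of UMIs were 25.1% in members against 26.7% in other AT2 cells (tumor-bearing), and 22.7% against 26.4% (control).

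Fibroblast transcripts that the rule did not use were also present. Tcf21, a transcription factor of lung fibroblasts, had 45.5 CPM in members, 0.702 CPM in other AT2 cells and 10.8 CPM in empty droplets (barcodes with 1 to 100 UMIs, which hold free RNA) of the tumor-bearing library. In the control library its levels were 51.2, 0.333 and 4.31 CPM. Pdgfra, the receptor that marks many lung fibroblasts, had 26 UMIs in 18 tumor-bearing members and 8 UMIs in 8 control members, or 15.8 and 18.6 CPM against 0.180 and 0.0833 CPM in other AT2 cells. Col1a1 and Col3a1, the main fibrillar collagens, reached 12.1 and 15.2 CPM in tumor-bearing members and 16.3 and 9.30 CPM in control members, and were under 0.3 CPM in other AT2 cells. These genes come from the same cells as the rule, so their levels describe the members and test nothing.

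Some fibroblast markers were missing from the members. Dcn, which encodes the collagen-binding proteoglycan decorin, had 0 UMIs in all 202 members, against 48.4 and 1203 CPM in the cells below the Sftpc minimum that carried at least 3 of the 6 markers. Those cells were a mixed set, with 16692 and 27435 CPM of the alveolar type 1 list and 114673 and 1482 CPM of the airway club cell list. A count of 3 UMIs would have been 1.82 CPM in tumor-bearing and 6.97 CPM in control members, the floor used for a count of 0, and the exact 95% upper bounds were 2.24 and 8.58 CPM. Other AT2 cells had 0.751 and 0.819 CPM of Dcn, under those bounds, so the 0 UMIs do not set members apart from them. Pi16, a marker of adventitial fibroblasts, likewise had 0 UMIs in members, but it reached only 0 and 3.67 CPM in those cells below the minimum. Dcn and Pi16 were singled out after their values were seen. With the Sftpc minimum at 10%, Dcn was instead among the genes called different between libraries. Such a call needs at least 50 CPM in members of either library. The count of 0 for Dcn thus holds for the minimum used here and not for that lower one. Mesothelial markers were near 0, with 4 and 6 UMIs over 8 genes.

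The 6 genes of the rule, with Acta2 and Gpx3, lay far above the other AT2 cells in both libraries. For the 6 genes this gap was set by the rule, which took cells that had them as members and left the rest as other AT2 cells. The rule also raises their levels in members over empty droplets, so for these genes neither comparison tests the members. Inmt, an amine N-methyltransferase gene of lung fibroblasts (chr6:55170627-55174990, GRCm38), had 823 CPM (780 to 868) in members and 17.0 CPM in other AT2 cells of the tumor-bearing library. In the control library it had 756 CPM (676 to 842) and 7.43 CPM. Free RNA was lower than members in both: its level in empty droplets was 174 CPM (tumor-bearing) and 47.0 CPM (control).

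Mfap4, which encodes a microfibril-associated glycoprotein of elastic fibres, had 360 and 349 CPM in tumor-bearing and control members against 6.91 and 2.33 CPM in other AT2 cells. Mgp, matrix Gla protein, an inhibitor of calcification (chr6:136872435-136875823), had 208 and 393 CPM against 4.54 and 2.98 CPM. Rarres2, the gene of the chemoattractant chemerin, had 93.5 and 114 CPM against 3.38 and 2.62 CPM. Each of these genes was higher in members than in empty droplets of its library, where the highest of the 3 was Mfap4 at 57.1 CPM (tumor-bearing). All 3 are genes of the rule, which raises their levels in members. Tagln, an actin-binding protein of contractile cells, had 104 and 137 CPM against 0.784 and 0.777 CPM, and Col1a2, a chain of type I collagen, 26.1 and 25.6 CPM against 0.392 and 0.0833 CPM.

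Gpx3, an extracellular glutathione peroxidase gene that the rule did not use (chr11:54902854-54910387), had 366 CPM (337 to 396) in tumor-bearing and 556 CPM (487 to 631) in control members, against 9.96 and 7.05 CPM in other AT2 cells. Its level followed the number of rule markers found in a cell. In the tumor-bearing library it was 5.54, 16.6, 82.3, 304, 337 and 708 CPM in cells with 0, 1, 2, 3, 4 and 5 markers. In the control library it was 4.27, 20.3, 146, 387, 722, 844 and 935 CPM in cells with 0 to 6 markers. The values at the upper end rest on few cells: 45 and 16 tumor-bearing cells with 4 and 5 markers, and 10, 10 and 2 control cells with 4, 5 and 6. The step from 2 to 3 markers, where the rule draws its line, was thus part of a gradual series and no gap: 202 tumor-bearing cells and 98 control cells had 2 markers, and 87 and 32 had 3. At the Sftpc minimum, 1 and 2 cells with at least 3 markers lay within 1 percentage point below it, and 2 and 4 within 1 point above it.

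**Figure D1:**
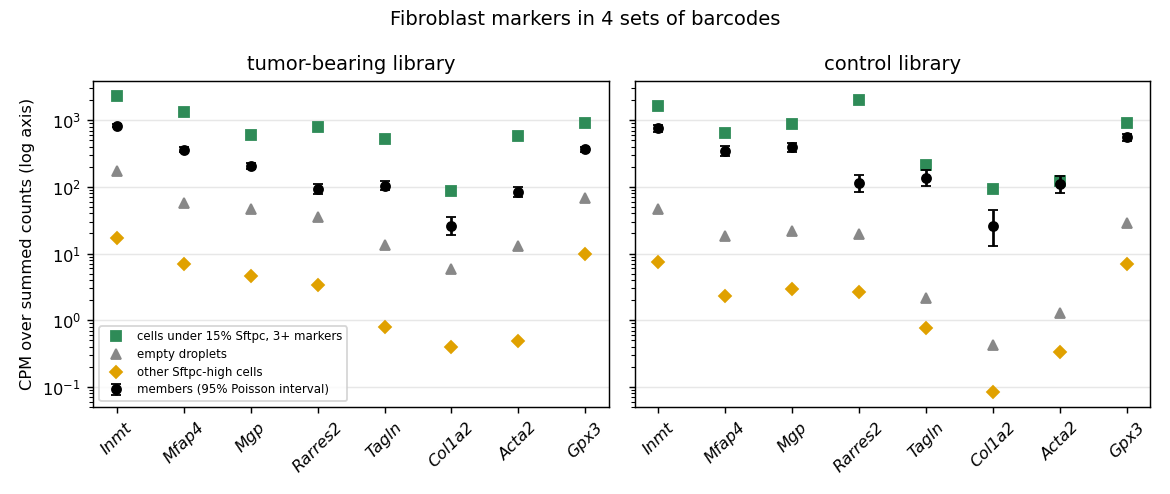
Level of the 6 genes of the rule, Acta2 and Gpx3 (CPM of summed counts, log axis) in members, other AT2 cells, empty droplets and the cells under 15% Sftpc with at least 3 markers, in each library. Members lie between the cells under the minimum and the empty droplets for all 8 genes, as for Inmt at 823 CPM against 2319 and 174 CPM in the tumor-bearing library. The choice by markers itself raises the 6 genes of the rule in members and in the cells under the minimum.

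The tumor-bearing library held more members for its size, and it was also deeper. Members were 2.20% (1.87 to 2.58) of the cells above the Sftpc minimum in the tumor-bearing library, against 0.540% (0.406 to 0.704) in the control library, a ratio of 4.08 (2.97 to 5.68). Median depth was 10071 UMIs in members and 8956 in other AT2 cells of the tumor-bearing library, and 7552 and 6940 UMIs in the control library. After each cell was thinned to 2000 UMIs, 33 and 18 cells met the marker rule, or 0.491% (0.338 to 0.689) and 0.180% (0.107 to 0.284), a ratio of 2.73 (1.49 to 5.15). All of these were members before thinning.

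Free fibroblast RNA was also higher in the tumor-bearing library: Inmt was 174 against 47.0 CPM in empty droplets, and 9.91% against 3.87% of other AT2 cells had at least 1 Inmt UMI (2.89% against 1.33% after thinning). The cells below the Sftpc minimum with at least 3 markers numbered 106 and 40, so they too were more numerous in the tumor-bearing library. The part of these values in the share of members was not tested. Other free transcripts give a scale for these levels. Scgb1a1, the club cell secretory protein gene, had 6064 CPM in members, 6325 CPM in other AT2 cells and 114315 CPM in empty droplets (tumor-bearing). The haemoglobin gene Hbb-bs had 12.1, 27.0 and 605 CPM in the same sets. Both were chosen after their values were seen.

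**Figure D2:**
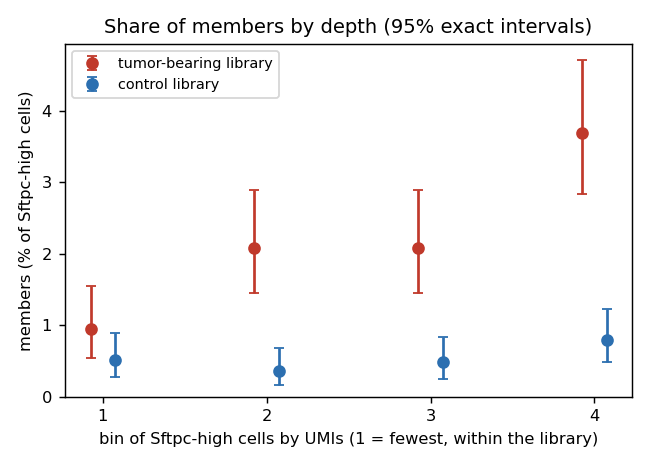
Percent of cells above the Sftpc minimum that are members, in 4 bins of UMIs of equal size within each library (points, with exact 95% intervals). The tumor-bearing share goes from 0.953% in the lowest to 3.69% in the highest bin, and the control share is lowest in the bin after the first, at 0.360%.

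Median doublet scores of members lay near or under those of other AT2 cells, while the highest-scoring fraction held a larger share of tumor-bearing members. Scrublet marked 0 cells by its own threshold, and whether members were doublets was not tested. The median Scrublet score was 0.0766 in members and 0.0795 in other AT2 cells of the tumor-bearing library, and 0.0629 and 0.0876 in the control library. The highest-scoring fraction held 14 members (9.46%) against 6.73% of other AT2 cells, and 5 members (9.26%) against 9.14%. The genes of the mesenchymal lists and the rule held a median of 0.361% of UMIs in tumor-bearing and 0.520% in control members. The medians were 0.147% and 0.149% in other AT2 cells, and the highest shares in a member were 2.45% and 2.88%. In the cells below the Sftpc minimum with at least 3 markers, whose median Sftpc share was 1.10% and 1.70%, these genes held 1.40% and 1.31%. The lists hold only some of the genes of fibroblasts, so the whole part of fibroblast RNA in a droplet was not measured. The libraries shared 128 cell barcodes, and no barcode was a member in both.

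Between single droplets, the fibroblast transcripts fell into unlike sets. Inmt was found in 144 of 148 and 52 of 54 members, with a median of 5.5 and 4 UMIs and a maximum of 97 and 35. Inmt, Mfap4 and Gpx3 were found together in 113 (76.4%) of tumor-bearing and 35 (64.8%) of control members. Tagln was found in 29 and 16 members only. Acta2, smooth muscle actin (chr19:34240336-34255585), was found in 4 tumor-bearing and 2 control members.

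The 4 tumor-bearing droplets with Acta2 had 64, 53, 21 and 1 UMIs of it, and the 2 control droplets 44 and 4. The 5 droplets with at least 2 Acta2 UMIs had 0 Inmt UMIs, where the other members together had 1355 and 325. They held 80.1% and 62.7% of all Tagln UMIs in members and 84.6% and 64.5% of those of Myl9, a myosin light chain gene. Cnn1, smooth muscle calponin, was found in no other member, with 19 and 2 UMIs. Mustn1, a small protein gene of muscle and skeleton, had 81.9% of its tumor-bearing and all of its control UMIs there. Tagln was not limited to these droplets: without them its log2 ratio of members to other AT2 cells was 3.64 (tumor-bearing) and 5.10 (control), beside 5.88 and 6.28 with them.

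**Figure D3:**
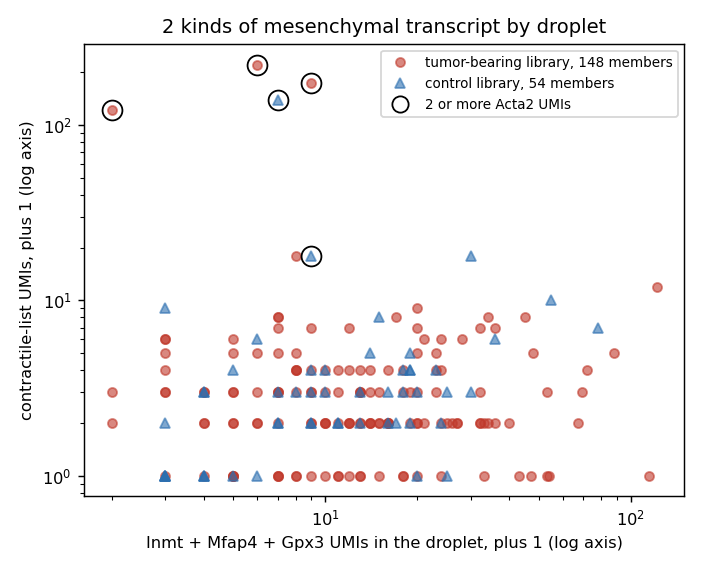
UMIs of the contractile list against UMIs of Inmt, Mfap4 and Gpx3 in each member (both plus 1, log axes), with a ring around the droplets with at least 2 Acta2 UMIs. The ringed droplets lie to the left with few Inmt, Mfap4 and Gpx3 UMIs, and the droplet with 97 Inmt UMIs has no Acta2.

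The promoter windows of Inmt, Acta2 and Myl9 are shown because Acta2 and Inmt UMIs lay mostly in different droplets, and most Myl9 UMIs lay in those with Acta2. Each is the 250 bases before a RefSeq transcript start (GRCm38.p6), 5′ to 3′ on the gene's strand, and the windows of Acta2 and Myl9 lie partly within the genes' annotated ranges. Capitals mark TATAAA or the strict CArG box (CC, then only A or T, then GG). The CArG box is the site of serum response factor, which drives many contractile genes. Looser forms of the box, such as ccctatatgg in the Acta2 window, were not searched and stay in lower case.
Inmt, chr6:55174991-55175240, minus strand: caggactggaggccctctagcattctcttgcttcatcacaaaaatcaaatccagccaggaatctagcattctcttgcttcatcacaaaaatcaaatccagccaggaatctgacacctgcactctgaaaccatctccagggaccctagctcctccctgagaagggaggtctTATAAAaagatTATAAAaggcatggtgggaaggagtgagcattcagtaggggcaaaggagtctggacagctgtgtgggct
Acta2, chr19:34255374-34255623, minus strand: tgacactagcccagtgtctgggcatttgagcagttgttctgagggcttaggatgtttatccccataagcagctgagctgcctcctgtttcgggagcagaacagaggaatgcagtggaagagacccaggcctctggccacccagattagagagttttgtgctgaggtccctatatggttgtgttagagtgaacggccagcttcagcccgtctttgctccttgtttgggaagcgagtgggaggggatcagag
Myl9, chr2:156775214-156775463, plus strand: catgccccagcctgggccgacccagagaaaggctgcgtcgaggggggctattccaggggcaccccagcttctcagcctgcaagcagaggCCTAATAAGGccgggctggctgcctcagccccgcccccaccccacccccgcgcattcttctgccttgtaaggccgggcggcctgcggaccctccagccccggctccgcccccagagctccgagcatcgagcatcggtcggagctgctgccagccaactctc
The Myl9 window held 1 strict CArG box, which 1.47% of 32851 windows of this length held (the box reads as a CArG box on both strands). The Acta2 window held 0 strict boxes, a count that leaves out the looser forms. The Inmt window held TATAAA 2 times on the gene's strand, the only strand searched, and 7.59% of windows held it. These matches are descriptions of letters and not of binding.

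Transcripts of other cell types came with the fibroblast transcripts in some members. At least 5 UMIs of the 12-gene endothelial list were found in 37 tumor-bearing members (25.0%, 18.3 to 32.8) against 5.02% of other AT2 cells, and in 5 control members (9.26%, 3.08 to 20.3) against 0.563%. Of these droplets, 36 and 5 also had Inmt. Cldn5, the tight junction gene of endothelium, had 122 and 41.9 CPM in members, 37.2 and 4.47 CPM in other AT2 cells, and 161 and 17.7 CPM in empty droplets. At least 100 UMIs of the list of alveolar type 1 (AT1) cells, the flat cells of gas exchange, were found in 3 (2.03%) and 5 members (9.26%), against 0.989% and 0.523% of other AT2 cells.

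Pericyte transcripts were likewise gathered in few droplets. At least 10 UMIs of the pericyte list were found in 5 (3.38%) and 2 members (3.70%), against 0.213% and 0.0604% of other AT2 cells. These droplets held 51.4% and 76.5% of the UMIs of Cox4i2, a cytochrome oxidase subunit gene of pericytes. Cox4i2 is itself in the list that chose them, so the choice raises these shares. Markers of macrophages (19 and 2 UMIs over 10 genes), T and NK cells (2 and 0 UMIs), cartilage (0 and 0) and basal cells (3 and 1) were at or near 0. With at least 2 Acta2, 5 endothelial or 100 AT1 UMIs as limits, all set after the values were seen, 108 (73.0%) and 42 members (77.8%) met none of the 3.

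Across all genes with at least 20 CPM in members or in other AT2 cells, a gene was called where the log2 ratio (pseudocount 1 CPM) was at least 1 in size and the intervals were separate. In the tumor-bearing library 135 of 4320 genes (3.12%) were called higher in members and 2 (0.0463%) lower. In the control library 285 of 4691 (6.08%) were called higher and 24 (0.512%) lower. Of 4101 genes measured in both, 95 were called higher in both and 1 lower in both, and 21 of the 95 were in the mesenchymal lists or the rule. The rule used this contrast, so these counts are not evidence about the members.

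The 111 genes of the mesenchymal lists outside the rule had 29 measured in the tumor-bearing library, of which 16 were called higher and 0 lower, and 33 measured in the control library, of which 22 were higher and 0 lower. Their median log2 ratio was 1.73 and 2.98, beside 0.09 and 0.17 for all genes measured. Without the droplets with at least 2 Acta2 UMIs the medians were 0.79 and 2.30, and with at least 20% Sftpc 0.76 and 1.34. A gene could pass the 20 CPM minimum through members alone, so these medians describe the genes that passed and not the whole lists.

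Alveolar fibroblast genes were called higher in 4 of 7 measured (tumor-bearing) and 5 of 8 (control). Limch1, an actomyosin regulator gene, had 100.2 and 114 CPM in members against 16.8 and 13.0 CPM in other AT2 cells, and Figf, the growth factor VEGF-D, 33.4 and 34.9 CPM against 0.310 and 0.403 CPM. Itga8, the integrin alpha 8 gene, had 18.2 and 25.6 CPM against 0.327 and 0.153 CPM. Ces1d, a carboxylesterase gene of that list, did not differ in this way: it had 324 and 414 CPM in members and 329 and 404 CPM in other AT2 cells. The contractile list had 5 of 6 measured genes called higher in each library, and the collagen list 2 of 5 and 4 of 6. Bgn, the proteoglycan biglycan, led the collagen list with 94.1 and 144 CPM against 3.22 and 1.64 CPM. Signal genes of the niche list were mostly low: Bmp4 was the only measured gene, at 97.8 and 105 CPM in members against 96.7 and 94.2 CPM, while Fgf7 had 11 and 0 UMIs in members and Fgf10 had 2 and 0.

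Among genes with at least 50 CPM in members of both libraries, the 15 with the highest ratio, ranked by the library where it was smaller, were Tagln, Acta2, Inmt, Mfap4, Mgp, Gpx3, Sod3, Pcolce2, Ogn, Bgn, Hsd11b1, Rarres2, Cdo1, Ctgf and Ppp1r14a. Sod3, extracellular superoxide dismutase, had 56.5 and 58.1 CPM in members and 0.718 and 0.541 CPM in other AT2 cells. Hsd11b1, the enzyme that restores active glucocorticoid, had 60.1 and 67.4 CPM against 1.76 and 0.555 CPM. Pcolce2, a procollagen processing enhancer, had 87.4 and 95.3 CPM against 1.80 and 0.972 CPM, and was found in 72 and 19 members. Ogn, the proteoglycan osteoglycin, had 52.8 and 58.1 CPM against 0.882 and 0.555 CPM. Among genes with at least 50 CPM in other AT2 cells of both libraries, Chia1, an acidic chitinase gene of AT2 cells, ranked lowest, with 390 and 272 CPM in members against 534 and 416 CPM; Adgrg1, Myh7, Bzw1 and Sdc1 followed, and none of the 5 passed 2-fold in either library. Hbb-bs, under 50 CPM in the tumor-bearing library, was called lower in both (log2 ratio -1.09 and -1.97).

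**Figure D4:**
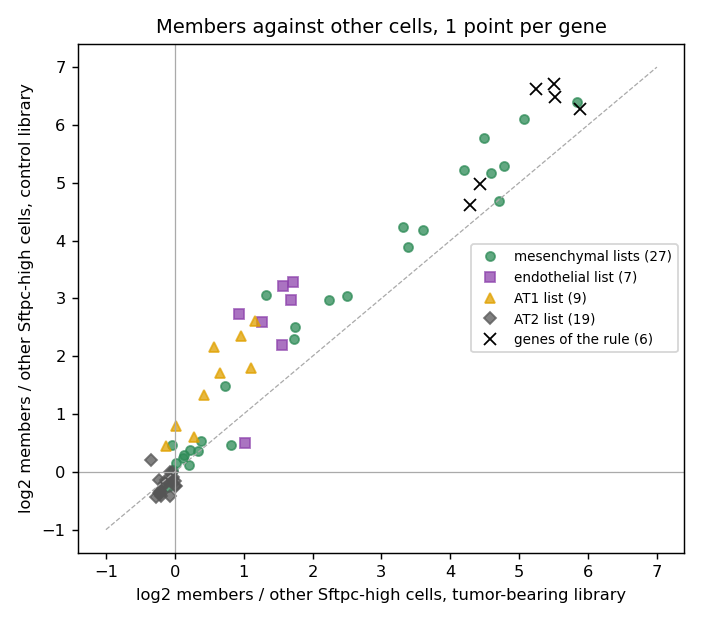
Log2 ratio of members to other AT2 cells (pseudocount 1 CPM) in the control against the tumor-bearing library, for list genes with at least 20 CPM in both. The 19 AT2 genes lie around 0, and the 6 genes of the rule and 27 mesenchymal genes spread up the diagonal, most of them above it.

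Immediate early genes, which respond within minutes to stimuli such as tissue digestion, were moderately higher in members, and none was called. Over 12 genes the median log2 ratio was 0.54 and 0.69. Fos had 1299 and 1251 CPM in members, 884 and 758 CPM in other AT2 cells, and 1355 and 1313 CPM in the cells below the Sftpc minimum with at least 3 markers. Atf3 had 182 and 177 CPM in members against 115 and 91.7 CPM. Heat shock genes had medians of 0.39 and 0.38, with 0 of 6 and 0 of 4 called.

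Genes that differed by 2-fold or more between tumor-bearing and control members were few. Of 2144 genes that reached 50 CPM in members of either library, 20 (0.933%) were called higher in tumor-bearing members and 47 (2.19%) lower, with a median log2 ratio over all of them of -0.09. None of the 27 genes of the rule and the mesenchymal lists that were measured was called in either direction, and against the all-gene shares above this is not a result about these genes. This count of 0 became 1 to 8 under 10 of the 14 other settings that give it. Inmt had a fold of 1.09 (0.964 to 1.23), Mfap4 1.03 (0.862 to 1.24), Col1a2 1.02 (0.518 to 2.20) and Rarres2 0.821 (0.592 to 1.16), so each interval held 1. Among other AT2 cells Inmt and Mfap4 were higher in the tumor-bearing library, by 1.10 and 1.25 on the log2 scale, from levels of at most 17.0 CPM.

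Mgp and Gpx3 were lower in tumor-bearing members, and their intervals did not hold 1. These intervals do not cover how members were chosen. Median depth was 10071 UMIs in tumor-bearing and 7552 UMIs in control members, so 1 UMI of a marker was a higher CPM in a typical control member. Mgp is itself a gene of the rule. The part of depth in the differences below was not tested. Mgp was 208 against 393 CPM, a fold of 0.530 (0.440 to 0.641), and was found in 109 of 148 and 47 of 54 members. Its log2 ratio was -0.91, and -0.35 without the droplets with at least 2 Acta2, 5 endothelial or 100 AT1 UMIs. Gpx3 was 366 against 556 CPM, a fold of 0.658 (0.565 to 0.767), and its log2 ratio stayed between -0.86 and -0.50 under the 16 other settings. In other AT2 cells both went the other way, by 0.48 and 0.44 on the log2 scale. That these differences differ was not tested. Summed over the 111 mesenchymal genes outside the rule, tumor-bearing members had 0.764 (0.724 to 0.807) of the control level, and other AT2 cells 0.988. The genes at 20 CPM or more had a median log2 ratio of -0.36 (7 above and 27 below 0), beside -0.10 for all genes at that minimum. A gene could pass the minimum through the library where it was higher, so these values describe the genes that passed. Over all list genes with at least 1 UMI the median was -0.21, and with Sftpc at 20% it was -0.09. Under the 50 CPM minimum, 3 mesenchymal genes had folds whose intervals lay under 0.5, each on at most 19 control UMIs: Aspn, a proteoglycan of the collagen matrix, at 0.101 (0.0280 to 0.300), Fbln5, an elastic fibre protein, at 0.220 (0.106 to 0.452), and Gucy1b3, a guanylate cyclase subunit, at 0.232 (0.111 to 0.482). All control UMIs of Aspn came from 2 droplets, and 73.7% of those of Fbln5 from 3. For Gucy1b3, a gene of the pericyte list, 72.2% came from the 2 control members with at least 10 UMIs of that list. The collagen list had a median of -0.54 over 6 genes and the alveolar fibroblast list -0.17 over 8.

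Of the 20 genes called higher, 3 were in the endothelial list. Gpihbp1, which anchors lipoprotein lipase to capillaries, had 119 CPM in tumor-bearing and 18.6 CPM in control members, and was found in 49 and 4 droplets, though it is in no list. Cldn5 had a log2 ratio of 1.52 and Ramp2, a receptor modifier of endothelium, 1.65. Tmem252, Plpp3 and Ly6c1 were also called higher. All 9 measured genes of the 12-gene endothelial list were above 0 in members (median 1.07), and the 4 measured in other AT2 cells had a median of 2.37. A gene could pass the 20 CPM minimum through tumor-bearing members alone. Ednrb, under the minimum, went the other way in members, at 2.43 against 6.97 CPM. Summed over all 12 genes, the fold in members was 2.15 (1.76 to 2.65). Hspa1a, an inducible heat shock protein gene, had 78.3 against 14.0 CPM in members and 46.9 against 15.1 CPM in other AT2 cells. Acot1, a fatty acid thioesterase gene, had 112 against 34.9 CPM and Bex2 321 against 126 CPM, beside 118 against 44.4 CPM and 340 against 194 CPM in other AT2 cells. Gm12216 completed the 10 highest. Of the 67 genes called in members, 56 had the same sign in other AT2 cells, 23 were at least 1.5-fold the same way there and 5 were also called there. The same-sign share over all genes was not computed, so these counts are not a result about the called genes.

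Several genes at the lower end rested on few control droplets. Cytl1 had 6.07 CPM in tumor-bearing and 53.5 CPM in control members, and 91.3% of its control UMIs came from the 3 droplets richest in it. Pdpn, the AT1 membrane protein podoplanin, had 17.0 against 114 CPM, and the 5 control droplets with at least 100 AT1 UMIs held 89.8% of its control UMIs. Rtkn2, another AT1 gene, had 13.4 against 53.5 CPM with 95.7% of control UMIs there. Pdpn and Rtkn2 are in the AT1 list that chose these droplets, so the choice itself raises their shares. Pxdc1 and Cyp4b1, a cytochrome P450 gene, are outside that list. They had 80.0% and 68.1% of their control UMIs in the same 5 droplets. Without the droplets with at least 100 AT1 UMIs, 25 genes were called lower in place of 47. Rtkn2 then turned to a log2 ratio of 1.46 and Samhd1 to 0.03. The UMIs of Rtkn2 count toward that limit, so its turn follows in part from the choice. Cyp2b10, another cytochrome P450 gene, was more evenly spread: it had 61.3 against 305 CPM, was found in 54 of 148 and 38 of 54 members, and was also lower in other AT2 cells (67.3 against 125 CPM). Gkn3, Myo1c and Cdkn1c completed the 10 lowest.

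**Figure D5:**
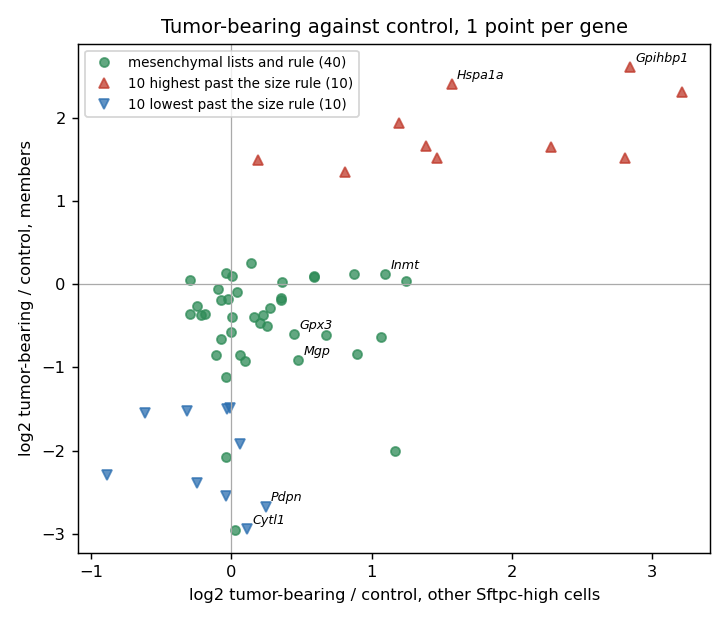
Log2 ratio of tumor-bearing to control in members against the same ratio in other AT2 cells, for 40 mesenchymal and rule genes with at least 20 CPM and the 10 highest and 10 lowest genes called in members. Gpihbp1 and Hspa1a lie high on both axes, Pdpn and Cytl1 are low in members only, and Mgp and Gpx3 lie under 0 in members and above 0 in other AT2 cells.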

How the data were processed

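Single-cell RNA was measured in 2 droplet libraries, 1 per group, with 84448360 (tumor-bearing) and 91498124 (control) UMIs. The authors deposited unnormalised UMI counts (28692 genes by 737280 barcodes), made with Cell Ranger 2.1.0 per the series design; the submitters' processing notes name mm10, R 3.5.3 and Seurat, with no role. Counts were summed over members and over other AT2 cells and scaled to CPM, so free RNA and mixed droplets were not removed. Shares have exact Clopper-Pearson, CPM exact Poisson and folds exact conditional binomial intervals. No test across mice was possible. Scrublet (scanpy 1.11.5) marked 0 cells by its own threshold, so its top 0.8% per 1000 cells was removed in an alternative only. Named genes were the rule genes, Acta2 and Gpx3, the 15 highest and 5 lowest member ratios (at least 50 CPM), up to 10 per direction between libraries, and up to 4 per list; other names were chosen after seeing values. The members and lists were chosen with earlier results of these data known. Of the 29 lists, 5 genes were not matched. RefSeq (GRCm38.p6) gave coordinates and promoters, the latter for 7 of 12 genes sought. The profile comparison was tested on simulated data.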

Additional observations from a re-analysis of the deposited data

How the results depend on the processing

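The ratio of member shares (4.08) lay between 2.73 and 4.65 under all 12 other settings that give it, and was lowest after thinning to 2000 UMIs (2.73). The median mesenchymal log2 ratio of members over other AT2 cells was above 0 throughout. In the tumor-bearing library (1.73) it was 0.87 with at least 2 markers, 0.76 with Sftpc at 20%, 2.90 after thinning, 1.32 with a pseudocount of 5 CPM, 0.79 without droplets with at least 2 Acta2 UMIs and 0.88 without all 3 kinds of droplet. In the control library (2.98) these values were 1.87, 1.34, 4.07, 2.24, 2.30 and 2.51, with 3.90 for at least 4 markers and 1.71 over all list genes with at least 1 UMI. Between libraries, genes called lower in members (47) numbered 5 with at least 2 markers, 26 with Sftpc at 20%, 25 without droplets rich in AT1 UMIs and 29 without all 3 kinds; genes called higher kept within 1.5-fold of 20. Mesenchymal and rule genes called (0) numbered 6 with at least 4 markers, 7 with Sftpc at 10%, 1 with Sftpc at 20% (Mgp), 5 without the highest Scrublet scores, 8 after thinning, 2 with CPM over all genes but Sftpc, 1 without Acta2 droplets, 1 without endothelial droplets, 4 without AT1 droplets and 3 without all 3 kinds. The 7 with Sftpc at 10% included Dcn.

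Called genes that turned: Acta2 in members over others to -1.89 after thinning (tumor-bearing), and to -0.21 without Acta2 droplets and -0.21 without all 3 kinds (control); between libraries Cdkn1c to 1.06 and Rtkn2 to 3.73 with Sftpc at 20%; Cytl1 to 0.62, Pdpn to 0.69, Rtkn2 to 0.78 and Samhd1 to 0.023 without the highest Scrublet scores; Pdpn to 0.18 after thinning; Rtkn2 to 1.46 and Samhd1 to 0.025 without AT1 droplets, and Rtkn2 to 1.49 without all 3 kinds. Of genes not called between libraries, 5 markers changed sign in some of the 16 settings: Acta2 ranged from -4.99 to 0.93, Col1a2 from -0.31 to 1.503, Mfap4 from -0.16 to 0.34, Inmt from -0.06 to 0.27 and Rarres2 from -1.06 to 0.21. The cause was not tested where no droplet set was removed. Rtkn2 is in the list that chose the AT1 droplets, so its turns without them follow in part from the choice. The 4 settings without droplet kinds were chosen after seeing the data. The Acta2 droplets held all 48 Acta2 UMIs of control members, so the turn of Acta2 to -0.21 without them was fixed by the choice. Counts of calls were not run for the mean of per-cell CPM. No library could be left out, with 1 per group. No paired analysis was possible because each group had 1 library and no test was run. With 54 control members and 430140 UMIs, genes under about 20 CPM there rest on few UMIs.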
